A study of Mus musculus with 46 samples.

Results

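Binding of the transcription factors CEBPb and CEBPa was compared in the livers of 3 vehicle-treated mice, named A44, A45 and A46, collected 3 h after injection. Each of these livers gave 1 CEBPb and 1 CEBPa peak list from chromatin immunoprecipitation with sequencing (ChIP-seq), so the comparison rests on 6 of the 46 libraries of the series. The mice were 7-week-old wild-type CD-1 males that received 1% DMSO in corn oil, and all 6 libraries share 1 sequencing lane in the labels. The 143117 peaks of the 6 lists were joined into 49230 regions wherever they shared 1 bp or more. The rest of the series holds RXRa lists, 4 input controls without immunoprecipitation, and CEBP lists from livers of mice given 3 mg/kg TCPOBOP, an activator of the nuclear receptor CAR, or vehicle. The CEBP livers used below as a check were the TCPOBOP livers D44, D45 and D46 at 3 h (7 weeks old), and the vehicle livers C1 to C4 and TCPOBOP livers D1 to D4 at 27 h (8 weeks old), all CD-1 males. The RXRa lists come from 14 livers of 8-week-old male mice of both treatments and times. The input controls come from livers of 7-week-old males at 3 h, 2 given vehicle and 2 given TCPOBOP, and none is from a 27 h or RXRa liver.

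CEBPa and CEBPb are basic leucine zipper proteins that bind as homodimers or heterodimers and recognise closely similar DNA motifs. In liver, CEBPa is known for maintaining genes of the differentiated hepatocyte, among them those of glucose and lipid metabolism. CEBPb is known for acute-phase gene induction and for roles in the liver's regenerative response. Whole liver holds other cell types besides hepatocytes, and peak lists carry no expression values against which the labelled tissue could be checked.

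The CEBPb lists were shorter than the CEBPa lists in each of the 3 livers. Liver A44 had 17512 CEBPb and 35196 CEBPa peaks, a ratio of 0.498. Liver A45 had 11899 CEBPb and 31491 CEBPa peaks, a ratio of 0.378. Liver A46 had 22746 CEBPb and 24273 CEBPa peaks, a ratio of 0.937. All 3 CEBPb lists were thus shorter than any CEBPa list, but the gap was wide in A44 and A45 and narrow in A46. The mean difference was -0.83 on the log2 scale (14.04 ± 0.47 for CEBPb and 14.87 ± 0.28 for CEBPa, SD, n = 3 each). The exact two-sided permutation test gave p = 0.1, the smallest value that 3 libraries against 3 allow, and the Benjamini-Hochberg adjusted value over 21 tests was 0.131. The CEBPb lists covered 4.02 to 6.90 Mb of the genome and the CEBPa lists 8.47 to 12.5 Mb. The lists come without read counts, so the depth of the 6 libraries is unknown, and its part in the list lengths was not tested.

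The order of the list lengths was the same in the TCPOBOP livers of that time and the opposite at 27 h. The ratio of CEBPb to CEBPa peaks was 0.833 in D44, 0.667 in D45 and 0.668 in D46. It lay between 1.10 and 1.74 in the 4 vehicle livers at 27 h and between 1.59 and 2.40 in the 4 TCPOBOP livers at 27 h. The log2 ratio averaged -0.83 ± 0.67 (SD, n = 3) in vehicle livers at 3 h and 0.47 ± 0.27 (SD, n = 4) in vehicle livers at 27 h, with no overlap. The exact permutation test of that difference gave p = 0.0571, the smallest value that 3 against 4 livers allow (adjusted p = 0.131). The CEBP livers of 3 h and 27 h also differ in flow cell and in age, so time, flow cell and age cannot be told apart here or in any later contrast of the 2 times. In the later contrasts the 3 h livers are all TCPOBOP-treated and the 27 h livers are of both treatments, so each is also given for TCPOBOP livers alone, where 3 against 4 livers cannot go below an exact permutation p of 0.0571.

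**Figure D1:**
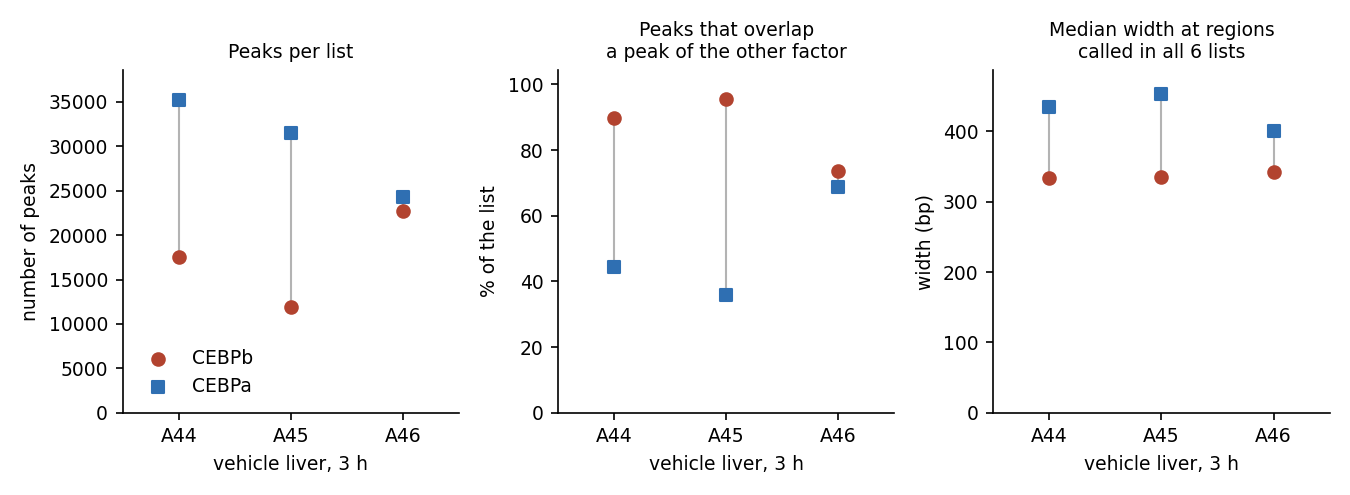
Values of the 3 vehicle livers at 3 h (horizontal axis), with CEBPb as red circles and CEBPa as blue squares joined by a grey line for each liver. From left to right, the vertical axes give the number of peaks, the percentage of peaks that overlap a peak of the other factor, and the median peak width in bp at the 9041 regions called in all 6 lists; CEBPb is lower on the left and right and higher in the middle in each liver, with the smallest gaps in A46.

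Most CEBPb peaks lay where CEBPa also had a peak, while a large part of the CEBPa peaks stood alone. In liver A44, 89.7% of CEBPb peaks overlapped a CEBPa peak and 44.5% of CEBPa peaks overlapped a CEBPb peak. The corresponding shares were 95.5% and 35.9% in A45, and 73.6% and 68.7% in A46. The share was higher for CEBPb in 3 of 3 livers, by 36.5 percentage points on average (86.2 ± 11.3% against 49.7 ± 17.0%, SD, n = 3 each; exact permutation p = 0.1, adjusted p = 0.131). The shares of one liver have nearly the same number of overlapping peaks above a different list length, so this difference restates the lengths of the lists. It is close to 0 by construction once both lists of each liver have the same number of peaks, and was 0.322 points with the widest peaks kept. The level of sharing is not fixed in that way: at equal length, 69.2% of CEBPb and 68.8% of CEBPa peaks were shared in A44, 67.6% and 67.3% in A45, and 71.4% and 71.2% in A46.

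Wider peaks were shared more often within each list. Among the narrowest 10% of CEBPb peaks, 73.4% in A44, 86.1% in A45 and 42.6% in A46 overlapped a CEBPa peak of that liver. Among the widest 10%, these shares were 97.6%, 99.0% and 95.7%. The range was wider for CEBPa. Among its narrowest 10% of peaks, 9.63%, 4.36% and 33.4% overlapped a CEBPb peak, and among its widest 10%, 80.0%, 73.3% and 91.3% did. Some of the widest CEBPa peaks thus had no CEBPb peak in the same liver.

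**Figure D2:**
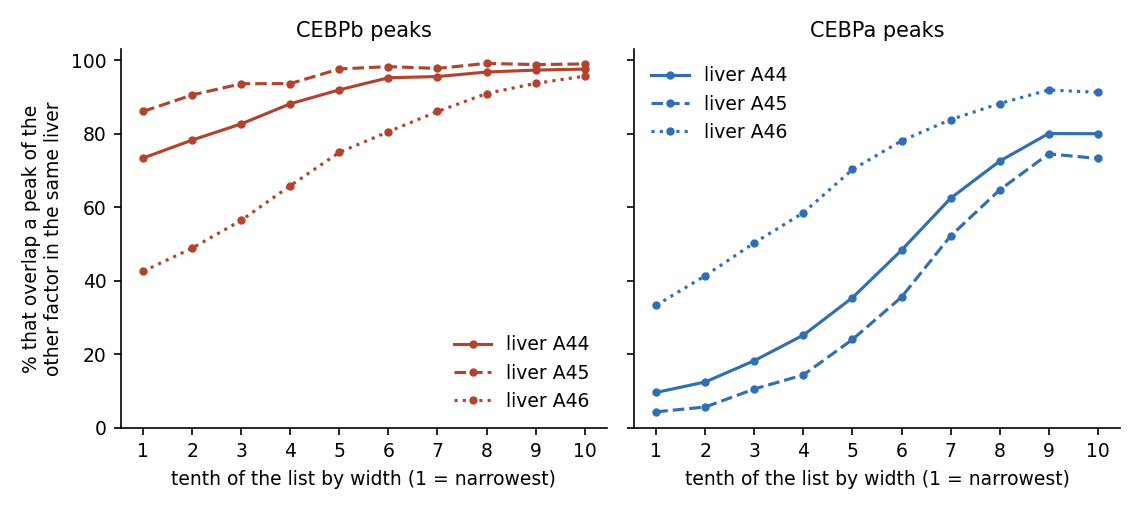
Percentage of peaks that overlap a peak of the other factor in the same liver (vertical axis), for 10 equal groups of peaks ordered by width within each list (horizontal axis, 1 = narrowest), with CEBPb peaks on the left, CEBPa peaks on the right and 1 line per liver. The lines run upwards over most of the range, from 4.36% in the narrowest CEBPa peaks of A45 to 99.0% in the widest CEBPb peaks of that liver.

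Peaks not shared within a liver were looked up in the lists of the other 2 vehicle livers. Liver A46 had 6011 CEBPb peaks without a CEBPa peak, and 58.8% of them overlapped a CEBPa peak of A44 or A45. The 1801 unshared CEBPb peaks of A44 and the 541 of A45 overlapped a CEBPa peak of another of the 3 vehicle livers in 34.5% and 51.4% of cases. They recurred in another CEBPb list of these livers in 21.4% (A44), 36.0% (A45) and 21.6% (A46) of cases. Unshared CEBPa peaks numbered 19548 in A44, 20172 in A45 and 7593 in A46, and overlapped a CEBPb peak of another of these livers in 30.4%, 46.5% and 23.3% of cases. They recurred in another CEBPa list in 55.5%, 69.9% and 68.4% of cases. The CEBPa lists searched were longer than the CEBPb lists, recurrence moves with that length, and no difference between the factors was tested. Unshared peaks of both factors were narrow, with a median width percentile within their own list of 19.4 to 25.3 for CEBPb and 25.6 to 34.7 for CEBPa.

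Over the 49230 regions, a CEBPb-specific region was one with a peak in all 3 CEBPb lists and in no CEBPa list, and a CEBPa-specific region the reverse. There was 1 CEBPb-specific region, 0.00203% of all regions. There were 1757 CEBPa-specific regions, 3.57% of all. A further 9041 regions (18.4%) had a peak in all 6 lists. Of the 9284 regions called in all 3 CEBPb lists, 97.4% were also called in all 3 CEBPa lists. Of the 18151 regions called in all 3 CEBPa lists, 49.8% were called in all 3 CEBPb lists and 9.68% in none. When 2 of 3 lists of a factor sufficed, 137 regions (0.278%) were CEBPb-specific and 6460 (13.1%) CEBPa-specific. The direction of this imbalance was kept but its size changed with the list length, to 82 against 196 of 34925 regions (0.235% and 0.561%) when the widest peaks of each liver were kept at equal length. With a single random draw of peaks to equal length, 255 and 303 of 40906 regions (0.623% and 0.741%) were CEBPb- and CEBPa-specific. Regions in all 6 lists then numbered 6827 (19.5%) with the widest and 1632 (3.99%) with drawn peaks. Leaving out a liver, so that 2 lists of each factor had to meet the rule, gave 60 CEBPb- and 3382 CEBPa-specific regions without A44, 189 and 2984 without A45, and 20 and 7876 without A46.

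**Figure D3:**
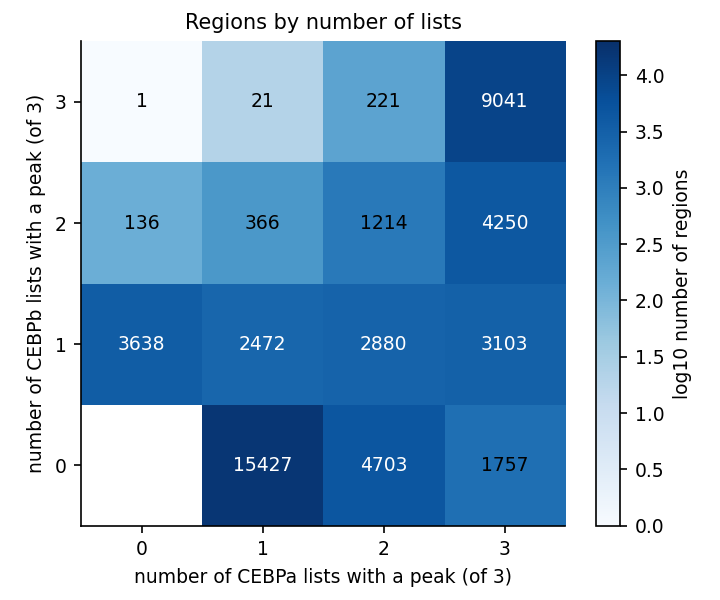
Number of the 49230 merged regions by the number of CEBPa lists (horizontal axis) and CEBPb lists (vertical axis) of vehicle livers at 3 h with a peak, with colour on a log10 scale. The corner of 3 CEBPb and no CEBPa lists holds 1 region, the opposite corner 1757, and the corner of all 6 lists 9041.

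Regions called by a single list made up most of the regions seen with only 1 factor. Of 3775 regions with CEBPb only, 2349 were called in A46 alone, 1060 in A44 alone and 229 in A45 alone. Of 21887 regions with CEBPa only, 7854 were called in A44 alone, 5267 in A45 alone and 2306 in A46 alone. The Jaccard index, the share of the merged regions of a pair of lists that both lists call, ran from 0.511 to 0.559 between CEBPa lists. It ran from 0.440 to 0.511 between CEBPb lists, from 0.354 to 0.552 between the factors in one liver, and from 0.317 to 0.505 between the factors in different livers. The range between CEBPa lists lay above that between the factors in different livers, and all other ranges overlapped. The index moves with the lengths of the lists paired, and no difference between the ranges was tested.

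The 82 CEBPb-specific regions at equal length were mostly regions where CEBPa had a narrower peak in the full list. In A44, 95.1% of them overlapped a CEBPa peak of the full list, in A45 86.6% and in A46, where the lists were nearly equally long, 26.8%. A CEBPa peak was present in the full list of 3 livers at 19 of the 82, of 2 livers at 52 and of 1 liver at 10, and 1 had none. Among the 255 CEBPb-specific regions with drawn peaks, CEBPa was in the full list of 3 livers at 187 (73.3%), of 2 livers at 56 and of 1 liver at 11, and 1 had none. By construction, none of the 196 CEBPa-specific regions at equal length overlapped a CEBPb peak in the full lists, because the shorter list of each liver was the CEBPb list and was kept whole.

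The 1 region with CEBPb in 3 of 3 livers and CEBPa in none lay on chromosome 19 of the mm9 assembly, from 6058605 to 6058892. Its CEBPb peaks were 225, 275 and 250 bp wide in A44, A45 and A46, and their mean width percentile was 25.1. It was also called by CEBPb in 3 of 3 TCPOBOP livers at 3 h, where CEBPa was called in none. At 27 h it had a CEBPb peak in 1 of 4 vehicle and 1 of 4 TCPOBOP livers and a CEBPa peak in 1 of 4 vehicle and 2 of 4 TCPOBOP livers. No gene is assigned to this or any other region, since no annotation of mm9 was used here.

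CEBPa-specific regions included wide peaks, although most were narrow. The region ranked first by width percentile lay on chromosome 4 from 122675738 to 122676590. Its CEBPa peaks were 707, 726 and 813 bp wide in A44, A45 and A46, and CEBPb was called in 1 of 3 TCPOBOP livers at 3 h and in 8 of 8 livers at 27 h. The second, on chromosome 10 from 119365192 to 119366210, had CEBPa peaks of 973, 670 and 589 bp, and the same CEBPb calls in the other livers. The third, on chromosome 13 from 60211884 to 60212580, had CEBPa peaks of 616, 649 and 642 bp, and an RXRa peak in 14 of 14 lists. The fourth, on chromosome 17 from 18003794 to 18004489, had CEBPa peaks of 681, 593 and 629 bp and no RXRa peak in any list. None of these 4 regions overlapped an input peak. No window of 200 kb held 5 CEBPa-specific regions; the highest number in a window was 4, found in 3 windows.

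Among the 10 regions called in all 6 lists that ranked highest by width, the 4 on chromosome Y overlapped input peaks and the other 6 did not. The first lay on chromosome Y from 2779727 to 2784015, with CEBPb peaks of 4209, 3271 and 3249 bp and CEBPa peaks of 3004, 4017 and 4252 bp. It overlapped a peak in 4 of 4 input lists, which were made without immunoprecipitation. The second, on chromosome Y from 2794414 to 2796728, had CEBPb peaks of 789, 1229 and 926 bp and CEBPa peaks of 1360, 1181 and 1051 bp, and also overlapped a peak in 4 of 4 input lists. The third, on chromosome 12 from 72936910 to 72938100, had CEBPb peaks of 1127, 1090 and 756 bp and CEBPa peaks of 1157, 1180 and 1128 bp, and no input peak. The fourth, on chromosome 7 from 87531163 to 87532204, had CEBPb peaks of 970, 967 and 922 bp and CEBPa peaks of 987, 1012 and 1027 bp, also without an input peak. Both were called in all 22 CEBP lists of other livers and in 14 of 14 RXRa lists. Over all classes, input peaks were rare, at 1.31% of the regions called in all 6 lists and 0.968% of the CEBPa-specific regions.

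CEBPb peaks were narrower than CEBPa peaks, both over whole lists and at the same regions. The median width over the list was 293, 315 and 282 bp for CEBPb in A44, A45 and A46, and 329, 346 and 323 bp for CEBPa. The groups did not overlap, and the mean difference was -36.0 bp (297 ± 16.8 against 333 ± 11.9 bp, SD, n = 3 each; exact permutation p = 0.1, adjusted p = 0.131). When each liver's lists were shortened to equal length by keeping the widest peaks, the difference was -106 bp, because only narrow CEBPa peaks were removed. At the 9041 regions called in all 6 lists, the median width was 333, 335 and 342 bp for CEBPb and 434, 453 and 400 bp for CEBPa. There the mean difference was -92.3 bp (337 ± 4.73 against 429 ± 26.9 bp, SD, n = 3 each; exact permutation p = 0.1, adjusted p = 0.131), and it was -95.0 bp at equal length. The CEBPa peak was the wider of the pair at 91.7% of these regions in A44, 92.9% in A45 and 77.9% in A46.

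At those regions the width difference had the same direction in the other livers of 3 h and the opposite direction at 27 h. CEBPb peaks were narrower by 58 bp in D44 (323 against 381 bp), by 78 bp in D45 (355 against 433 bp) and by 82 bp in D46 (311 against 393 bp). At 27 h they were wider than CEBPa peaks in 8 of 8 livers, by 9 to 37 bp in the vehicle and 28 to 50 bp in the TCPOBOP livers. The mean was -72.7 ± 12.9 bp (SD, n = 3) at 3 h and 29.4 ± 14.2 bp (SD, n = 8) at 27 h, with no overlap. The exact permutation test gave p = 0.0121, the smallest value that 3 against 8 livers allow, and an adjusted p of 0.0509. The difference between the times was -102 bp, -111 bp between TCPOBOP livers alone (exact permutation p = 0.0571), and -103 bp with the tested lists at equal length.

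Where each of the 6 lists had 1 peak, the peaks of both factors sat at nearly the same place. At 8881 regions with 1 peak in each of the 6 lists, the median distance between peak midpoints was 24 to 26.5 bp between CEBPb and CEBPa of one liver. It was 23.5 to 25 bp between CEBPa lists and 22.5 to 25.5 bp between CEBPb lists of different livers. Midpoints lay within 50 bp of each other at 77.4% to 81.6% of the regions between the factors in one liver. These ranges lie within or next to those between livers of one factor. Regions were joined by overlap of peaks, which limits the distances in advance for every pair of lists. The rank correlation of peak width over the all-list regions was 0.611 to 0.635 between CEBPa lists, 0.505 to 0.552 between CEBPb lists and 0.535 to 0.573 between the factors of one liver. It describes regions within these livers, which share a lane and are not replicates.

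CEBPa-specific regions had narrower CEBPa peaks than regions called for both factors. Among the 18151 regions called in all 3 CEBPa lists, the median CEBPa width percentile was 37.1 at the 1757 without a CEBPb peak. It was 45.3 at the 3103 regions with 1 CEBPb list, 55.1 at the 4250 with 2, and 76.3 at the 9041 with 3. The CEBPa peaks at CEBPa-specific regions had a median width of 301, 309 and 276 bp in A44, A45 and A46, against 434, 453 and 400 bp at regions called in all 6 lists. Of the CEBPa-specific regions 15.5% lay within 10 kb of a region called in all 6 lists, beside 20.2% of the all-list regions themselves and 13.7% and 13.9% of the CEBPa and CEBPb regions that met the looser rule of 2 of 3 lists. Of the CEBPa-specific regions, 2.39% were on chromosome X, which held 1.04% of the all-list regions. Chromosome X held 2.20% and 0.730% of the CEBPa and CEBPb regions that met the looser rule. Its share of all merged regions was not computed, and no difference was tested.

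CEBPa-specific regions were then looked up in lists that had no part in choosing them. In the TCPOBOP livers at 3 h, CEBPa was called at 58.9% of them in D44, 71.8% in D45 and 56.1% in D46, and CEBPb at 37.0%, 34.3% and 22.1%. CEBPa was called more often in 3 of 3 livers (62.2 ± 8.37% against 31.1 ± 7.94%, SD, n = 3 each), with a difference for CEBPb minus CEBPa of -31.1 points. The exact permutation test gave p = 0.1, the smallest possible (adjusted p = 0.131). With the tested lists of each liver at equal length the difference was -8.99 points (exact permutation p = 0.3).

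In livers at 27 h the order was the opposite: the regions without a CEBPb peak in vehicle livers at 3 h were called more often by CEBPb than by CEBPa. In vehicle livers at 27 h, CEBPb was called at 74.0% to 85.8% of them and CEBPa at 46.9% to 67.4% (81.9 ± 5.36% against 61.0 ± 9.50%, SD, n = 4 each). The difference of 20.9 points was seen in 4 of 4 livers (exact permutation p = 0.0286, adjusted p = 0.075). In TCPOBOP livers at 27 h, CEBPb was called at 87.2 ± 2.34% and CEBPa at 50.3 ± 10.1% (SD, n = 4 each), a difference of 36.9 points in 4 of 4 livers (exact permutation p = 0.0286, adjusted p = 0.075). Paired by liver, both differences gave an exact p of 0.125, the smallest value for 4 pairs. The CEBPb lists of these livers were the longer ones, and with both lists of each liver at equal length the differences were 3.10 and 2.02 points (exact permutation p = 0.486 and 0.571). The 137 regions with CEBPb in at least 2 of 3 lists and no CEBPa had the same order. CEBPb was called at 67.0% and CEBPa at 43.2% of them in vehicle livers at 27 h, and at 73.4% and 29.0% in TCPOBOP livers. Rates over all merged regions were not computed, so this order is not shown to be particular to CEBPa-specific regions.

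The difference between CEBPb and CEBPa call rates at these regions averaged -31.1 ± 8.18 points (SD, n = 3) at 3 h and 28.9 ± 13.5 points (SD, n = 8) at 27 h. The exact permutation test of 3 h against 27 h gave p = 0.0121, the smallest possible, and an adjusted p of 0.0509. At equal length of the tested lists, the difference between the times of -60.0 points became -11.6 points (exact permutation p = 0.0121). Between TCPOBOP livers alone, with lists as deposited, it was -68.0 points (exact permutation p = 0.0571). For comparison, regions called in all 6 lists had a peak in 92.2% to 99.9% of cases in each CEBP list of the other livers.

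**Figure D4:**
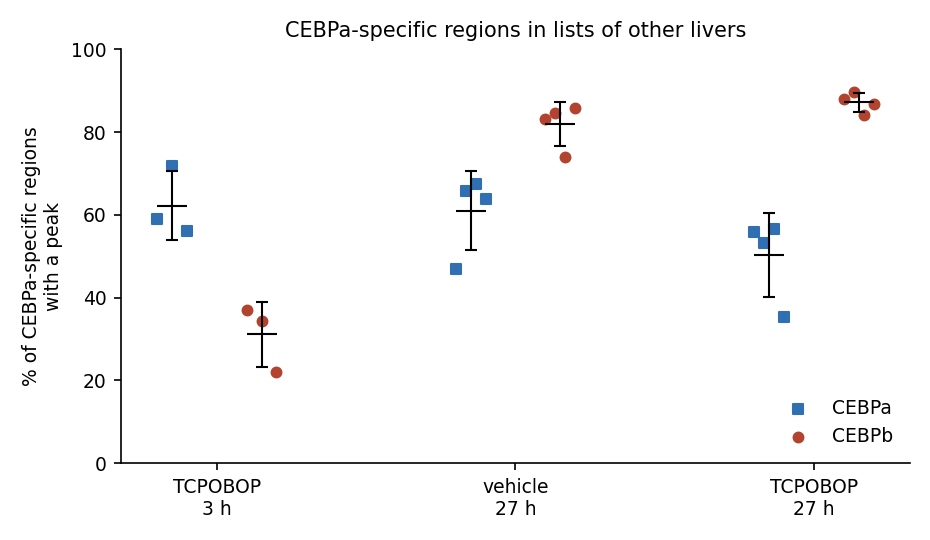
Percentage of the 1757 CEBPa-specific regions with a peak in each list of other livers (vertical axis), by treatment and time (horizontal axis), with CEBPa as blue squares and CEBPb as red circles, 1 point per liver, and black bars for the mean and SD. CEBPa lies above CEBPb in TCPOBOP livers at 3 h, and CEBPb lies above CEBPa in both groups at 27 h.

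Few of the CEBPa-specific regions lacked CEBPb throughout. A CEBPb peak was present in at least 1 of 11 other livers at 1744 of the 1757 (99.3%), and in all 8 livers at 27 h at 906 (51.6%). The CEBPb lists searched held up to 55513 peaks, and the matching shares over all merged regions were not computed. Whether these shares are particular to CEBPa-specific regions was thus not tested. There were 126 regions (7.17% of the 1757) with CEBPa in 6 of 6 and CEBPb in 0 of 6 livers at 3 h. All 126 had a CEBPb peak in at least 1 of 8 livers at 27 h, and 63 of them (50%) had it in all 8. The latter share is close to the 51.6% of all CEBPa-specific regions. One example lay on chromosome 15 from 80628763 to 80629364. Its CEBPa peaks were 561, 496 and 602 bp wide in A44, A45 and A46, and at 27 h CEBPb was called in 8 of 8 livers and CEBPa in 1 of 4 livers of each treatment. No region was called by CEBPa in all 14 livers and by CEBPb in none. The 13 regions without CEBPb in the 11 other livers were led by a region on chromosome 4 from 124614019 to 124614520, with CEBPa peaks of 420, 317 and 330 bp and no CEBPa peak outside A44, A45 and A46.

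The 137 regions with CEBPb in at least 2 of 3 livers and no CEBPa rarely stayed free of CEBPa in other livers. Of these, 104 were called in A44 and A46. In TCPOBOP livers at 3 h they were called by CEBPb at 21.2 ± 4.44% and by CEBPa at 34.8 ± 7.74% (SD, n = 3 each). The opposite class of 6460 regions was called at 21.4 ± 6.91% by CEBPb and 46.1 ± 8.88% by CEBPa in these livers (SD, n = 3 each), so the CEBPb rate was much alike in both classes. The CEBPa lists there were the longer, at 25344 to 33657 peaks against 16939 to 22984. At 27 h CEBPb was called at 67.0 ± 5.76% and CEBPa at 43.2 ± 8.11% in vehicle livers, and CEBPb at 73.4 ± 2.70% and CEBPa at 29.0 ± 7.82% in TCPOBOP livers (SD, n = 4 each). A CEBPa peak was present in at least 1 of the 11 other livers at 127 of the 137, and a CEBPb peak at 130. The matching shares over all merged regions were not computed. There were 7 regions with CEBPb in another liver and CEBPa in none of the 14. The one with the highest width percentile lay on chromosome 7 from 105963863 to 105964275, with CEBPb peaks of 272 bp in A45 and 413 bp in A46. It had CEBPb peaks in 2 of 3 TCPOBOP livers at 3 h and in 8 of 8 livers at 27 h.

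A contrast of the classes asked whether CEBPb-specific regions were called more by CEBPb, relative to CEBPa-specific regions, in other livers. As only 1 region was CEBPb-specific, its values of 131 points in TCPOBOP livers at 3 h (exact permutation p = 0.1), -20.9 in vehicle livers at 27 h (exact p = 0.457) and -61.9 in TCPOBOP livers at 27 h (exact p = 0.171) rest on that region. With the classes of at least 2 of 3 lists, it was 11.0 points in TCPOBOP livers at 3 h (exact p = 0.1, adjusted p = 0.131), higher for CEBPb in 3 of 3 livers. It was 2.55 points in vehicle livers at 27 h (exact p = 0.343) and 4.90 points in TCPOBOP livers at 27 h (exact p = 0.0286, adjusted p = 0.075). The 2.55 and 4.90 points turned negative, to -2.05 and -8.78, when all CEBP lists of each liver were at equal length. None of these contrasts passed the adjusted threshold of 0.05.

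RXRa, the obligate partner of many nuclear receptors in liver, was called less often at CEBPa-specific regions than at regions shared by both factors. Over 14 RXRa lists, a peak was present at 26.03% of the CEBPa-specific regions (18.2% to 41.2%) and 53.0% of the all-list regions (40.8% to 71.4%). The difference was -27.0 ± 2.57 points (SD, n = 14), lower in 14 of 14 lists. The exact sign-change permutation test gave p = 0.000122, the smallest it can give, and an adjusted p of 0.00256. All 14 lists were looked up at the same sets of regions, so this p measures agreement among the lists only. The CEBPa-specific and all-list regions also differed in median CEBPa width percentile (37.1 against 76.3) and in median region width (384 against 502 bp). RXRa calls differed with the width of the CEBPa peak. Between width percentiles 75 and 100, RXRa was called at 61.4% of 73 CEBPa-specific and 62.1% of 4821 all-list regions. Between 50 and 75 it was called at 29.9% of 370 and 44.4% of 3434 regions, and between 25 and 50 at 24.95% of 902 and 34.9% of 754 regions. Below 25 it was called at 18.6% of 412 CEBPa-specific regions and 36.8% of the 32 all-list regions of that band, a rate above that of the band from 25 to 50. The 137 and 6460 regions of the 2-of-3 classes had RXRa rates of 20.4% and 21.1%, a difference of -0.63 ± 2.01 points (SD, n = 14; exact permutation p = 0.256, adjusted p = 0.298). The contrast with the single CEBPb-specific region was -4.60 points (exact permutation p = 0.701).

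At the regions called in all 6 lists, the factors were compared by relative width. Relative width is the percentile of a list's peak width at a region among its widths at all of these regions, so each list has about the same mean over them and an overall difference in width does not enter. All 3 CEBPb peaks ranked above all 3 CEBPa peaks at 813 of the 9041 regions (8.99%), termed CEBPb-leaning, and the reverse held at 470 (5.2%), termed CEBPa-leaning. These percentages describe the choice itself, as do the mean differences of 20.4 and -33.0 percentile points between CEBPb and CEBPa in the 3 vehicle livers. A random order of the 6 peaks at each region would place in either set a share slightly below the 5.2% found for CEBPa-leaning regions. The count of CEBPa-leaning regions is near that share, so it does not by itself show a preference. The CEBPb-leaning region with the largest difference lay on chromosome 5 from 103222473 to 103222950, with CEBPb peaks of 418, 393 and 408 bp and CEBPa peaks of 323, 309 and 331 bp. The CEBPa-leaning region with the largest difference lay on the same chromosome from 128118075 to 128118895. It had CEBPb peaks of 251, 243 and 253 bp and CEBPa peaks of 793, 698 and 821 bp, an RXRa peak in 14 of 14 lists and an input peak in 1 of 4.

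In livers not used to choose them, the leaning regions kept their direction at 3 h and not at 27 h. In D44, D45 and D46 the relative width of CEBPb minus CEBPa was 2.54, 2.61 and 2.27 percentile points at CEBPb-leaning and -6.62, -6.51 and -7.35 at CEBPa-leaning regions. The contrast of these sets was 9.16, 9.12 and 9.62 points in D44, D45 and D46. At 27 h the contrast was negative in 8 of 8 livers, from -2.91 to -4.99 points in vehicle and -5.80 to -7.12 points in TCPOBOP livers. Its mean was -5.41 ± 1.53 points (SD, n = 8; exact sign-change permutation p = 0.00781, adjusted p = 0.0509). The contrast at 3 h exceeded that at 27 h by 14.7 points (exact permutation p = 0.0121, the smallest possible; adjusted p = 0.0509), and by 14.5 points with the tested lists at equal length. Between TCPOBOP livers alone it exceeded it by 15.97 points (exact permutation p = 0.0571). Over all regions called in all 6 lists and in both lists of the tested liver (8273 to 8926), the difference correlated with that of the vehicle livers at r = 0.138 to 0.148 at 3 h and -0.103 to -0.0173 at 27 h. This is a weak relation over regions, which are not replicates.

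**Figure D5:**
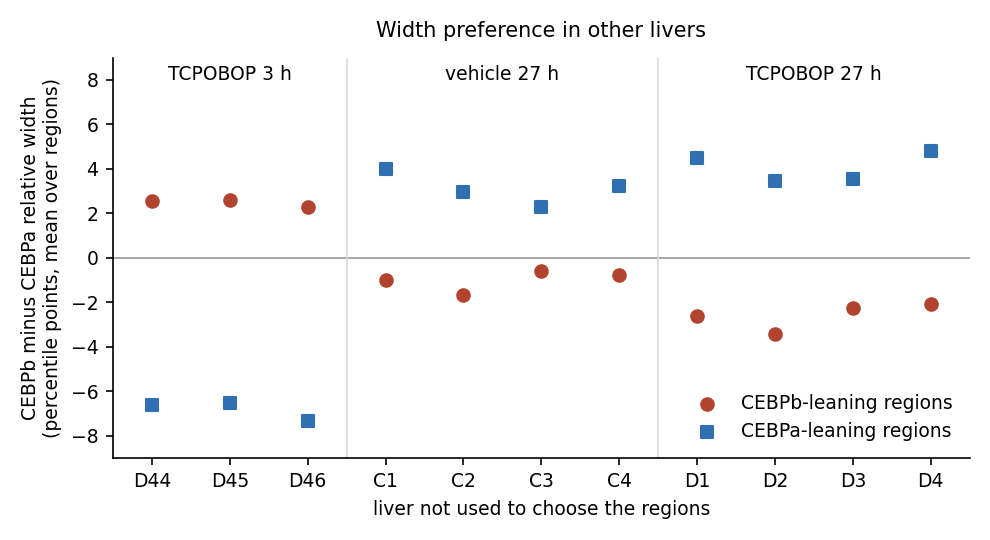
Relative width of CEBPb minus CEBPa, in percentile points averaged over regions (vertical axis), in each of 11 livers not used to choose the regions (horizontal axis), with CEBPb-leaning regions as red circles and CEBPa-leaning regions as blue squares. Red lies above blue in the 3 livers at 3 h and below it in the 8 livers at 27 h.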

How the data were processed

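Sonicated chromatin of individual livers was immunoprecipitated for RXRa, CEBPa or CEBPb, per the labels' protocols. The submitters' processing notes name Bowtie2 2.3.2, MACS2 and the build mm9, with the version and settings of MACS2 not given in the sources used here. Each library has 1 deposited peak list, called by the authors without pooling livers, with the chromosome, start, end and name of each peak and no score, so a peak's width percentile within its list stood in for strength. Positions are printed counted from 1. Depth is unknown, and binding too weak for the caller leaves no peak.

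Lists were grouped by the labels. The main tests of CEBPb against CEBPa lists did not use their pairing by animal. A sign-change permutation test of the differences within livers, with the liver as replicate block, was an alternative. Single values per library were compared with exact two-sided permutation tests, and 21 tests were adjusted together (Benjamini-Hochberg). The code was tested on simulated data. Named regions were the widest by mean width percentile in each class, taken in that order and not all printed, and those with the largest difference in relative width for the leaning sets. The regions named for having CEBPb or CEBPa in other livers, the leaning sets and the results on the 2-of-3 classes, the call rates and the 2 times were added after the data were seen. The livers and comparisons were chosen with earlier results of these data known. The alternatives were equal list length, lists without input-overlapping or narrow peaks, an overlap of at least 50% of the shorter peak, and leaving out each liver. Gene names, gene lists and motifs were not analysed here, as no mm9 genome or annotation was used. Identical peaks in a pair of lists of one factor made up 0.0168% or less, so no list was a copy. Python 3.11.15, numpy 2.4.6, scipy 1.17.1, pandas 2.3.3 and matplotlib 3.10.9 were used.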

Additional observations from a re-analysis of the deposited data

Results flagged for a closer look

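Among 38 groups of 4 livers or libraries looked at for a value far from the others, 2 had one, where chance gives about 1 in 20. The gap to the nearest value exceeded Dixon's critical share of the group's range. Both came from the CEBPa list of TCPOBOP liver D4 at 27 h, the shortest CEBPa list of the series with 20396 peaks. It called 35.3% of the CEBPa-specific regions, against 53.3% to 56.7% in the other 3 CEBPa lists of that group. It called 23.9% of the regions with CEBPa in at least 2 of 3 vehicle livers at 3 h and no CEBPb, against 41.0% to 42.0% in the others. Without liver D4 the difference between CEBPb and CEBPa call rates at CEBPa-specific regions in TCPOBOP livers at 27 h was 32.0 points.

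The comparison of CEBPb with CEBPa differed between 3 h and 27 h in 3 measures, each by an exact permutation test of the difference with p = 0.0121 (adjusted p = 0.0509). The median width at regions called in all 6 lists differed by -102 bp, the call rate at CEBPa-specific regions by -60.0 points, and the relative width contrast at leaning regions by 14.7 percentile points. The -60.0 points became -11.6 with only the tested lists at equal length. With all CEBP lists of each liver at equal length and the regions chosen anew, they became -31.5 with the widest and -11.0 with drawn peaks. The 3 h livers of these tests are all TCPOBOP-treated and the 27 h livers of both treatments. Between TCPOBOP livers alone the differences were -111 bp, -68.0 points and 15.97 percentile points, each with an exact permutation p of 0.0571, the smallest that 3 against 4 livers allow. Time, age and flow cell cannot be told apart in these 3 comparisons.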

How the results depend on the processing

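The list length, both width differences, the lower RXRa rate at CEBPa-specific regions and the 3 contrasts of 3 h with 27 h kept their direction under every alternative that gave a value. List length and both width differences could not cross the 0.05 threshold, as exact permutation tests of 3 against 3 libraries cannot go below p = 0.1. The RXRa rate and the 3 contrasts of the times kept their side of it in exact permutation tests. The exception was the 3 contrasts for TCPOBOP livers alone, an alternative added after seeing the data. There the width at all-list regions gave -111 bp, the call rate -68.0 points and the relative width contrast 15.97 points, each at 0.0571, the smallest p that 3 against 4 allow. The call rate contrast of the times fell in size from -60.0 points to -11.6 with only the tested lists at equal length. With all CEBP lists of each liver at equal length and the regions chosen anew, it was -31.5 with the widest and -11.0 with drawn peaks. With the liver as replicate block no value could reach 0.05, as the smallest exact p is 0.25 for 3 pairs and 0.125 for 4. List length, both width differences and the share difference gave 0.25 in that test. The call rate differences of 20.9 and 36.9 points in vehicle and TCPOBOP livers at 27 h each gave 0.125. So did the 2-of-3 class contrast of 4.90 points in TCPOBOP livers at 27 h. In the order CEBPb-specific, CEBPa-specific, the counts were 82 and 196 with the widest peaks at equal length, 255 and 303 with drawn peaks, 188 and 205 with all 6 lists at the shortest length, and 137 and 6460 with at least 2 of 3 lists. CEBPb-specific regions numbered 9 without input-overlapping peaks and 4 without the narrowest 25% of peaks. Regions called in all 6 lists numbered 1632 with drawn peaks and 4944 at the shortest length. CEBPb- and CEBPa-leaning regions numbered 153 and 79 with drawn peaks and 479 and 280 at the shortest length.

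The call rate difference at CEBPa-specific regions in vehicle livers at 27 h was 9.06 points with the widest peaks at equal length, 0.165 with drawn peaks and 3.10 with only the tested lists at equal length. In TCPOBOP livers at 27 h these values were 13.8, -7.01 and 2.02 points. The 2-of-3 class contrast in vehicle livers at 27 h was -2.05 points with the widest peaks, -10.7 with drawn peaks, -1.001 without input-overlapping peaks, -6.22 at the shortest length and 3.85 with the tested lists at equal length. In TCPOBOP livers at 27 h it was -8.78, -20.6, 0.762, -14.0 and 3.28 points in that order, and 0.903 without the narrowest 25%. The class contrast that rests on few CEBPb-specific regions was -10.9 points in vehicle livers at 27 h at the shortest length. In TCPOBOP livers at 27 h it was -15.0, -31.7, -50.5 and -18.7 points with the widest peaks, drawn peaks, without input-overlapping peaks and at the shortest length, and 19.1 without the narrowest 25%. The RXRa contrast of CEBPb- with CEBPa-specific regions was -10.7, 33.2, 20.1 and -11.8 points with the widest peaks, drawn peaks, without the narrowest 25% and at the shortest length. With 2 of 3 lists it was -7.69, 10.4, 2.41 and -7.03 points in that order, and 0.222 with an overlap of 50% of the shorter peak. The cause of these changes was not tested.

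Leaving out 1 liver gave 20 to 189 CEBPb-specific, 2984 to 7876 CEBPa-specific, 2188 to 2672 CEBPb-leaning and 1447 to 1856 CEBPa-leaning regions, since fewer lists had to meet each rule. The RXRa contrast then ran from -4.98 to 12.9 points, with the same range for 2 of 3 lists. The call rate difference ran from 15.8 to 25.7 points in vehicle and from 32.0 to 39.97 points in TCPOBOP livers at 27 h. The class contrast ran from -55.0 to 12.7 and from -71.8 to 14.1 points in these groups, and the 2-of-3 contrast in TCPOBOP livers at 27 h from 2.58 to 14.1 points. The share difference of 36.5 points ran from 25.1 to 52.4 points. List length and length ratio have no value at equal length, where they are 0 by construction. Depth is unknown, so no limit of detection can be given. The shortest-length lists and the results on call rates, 2-of-3 classes, leaning regions and the 2 times were added after seeing the data.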
